A study of Homo sapiens with 12 samples.

Results

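The 50 genes described here run the division of the cell: CDK1 and its cyclins, the enzymes that set CDK1 activity, the Polo, Aurora and NEK kinases, the mitotic transcription factors, the regulators of the anaphase-promoting complex (APC/C), the kinesin motors of the spindle, other spindle proteins, the cytokinesis machinery, and the proteins that shape mitotic chromosomes. They were chosen by name from their known roles, with earlier results of these data known. They were matched to 50 of the 60483 gene rows by Ensembl identifier, and all 50 were expressed well enough to be tested. The samples were MCF10A cells, an immortalised, non-transformed human mammary epithelial line transduced with a Tet-inducible TAZ-4SA, a constitutively active form of the Hippo pathway effector TAZ. Cells received no doxycycline (No Dox) or 0.05 µg/mL doxycycline (Dox) for 24, 48 or 72 h, with 3 RNA-seq libraries per group and 12 in all. The cells without Dox carried the same TAZ-4SA construct, and whether the line is 1 clone is not given in the sources used here. Transduced cells without the transgene were not analysed here, nor were cells labelled as kept without Dox for 24, 48 or 72 h. At each time, TAZ-4SA, Dox itself and time in culture therefore cannot be told apart. The labels do not say whether libraries came from separate cultures, and the p-values may then measure technical spread only.

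Entry into mitosis is driven by CDK1 bound to cyclin B, which WEE1 and PKMYT1 hold off by phosphorylation and the CDC25 phosphatases release. The APC/C, loaded with CDC20, then marks cyclin B and securin for destruction, which frees separase to part the sister chromatids and lets the cell leave mitosis. Most genes of this machinery are transcribed in G2 and mitosis through promoter elements named CHR (cell cycle genes homology region) and CCAAT, read by the MuvB complex with MYBL2 and FOXM1 in cycling cells, or with RBL2 or RBL1 and E2F4 as the repressive DREAM complex in resting cells. TAZ itself binds DNA through TEAD factors.

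Because the members moved together, their promoters were read from RefSeq (GRCh38.p14), as windows of 300 bases from 250 before to 50 after each gene start. Of the 50 members, 43 had a window. The letters searched on both strands were TTTGAA and also TTCGAA for the CHR, CCAAT for the box of that name and GGAATG for TEAD sites. For E2F sites they were TTGGCGC and the like words TTCCCGC and also TTCGCGC and finally TTGCCGC. Below are the 100 bases just before the start of 8 members, written 5′ to 3′ on the strand of the gene with matched letters in capitals. CDC20 and PLK1 are shown for strong rises with both CHR and CCAAT letters, CCNB1 for a strong rise with CCAAT letters and no CHR letters, PRC1 and KIF4A for a CCAAT and CHR pair, CDC25A for its partial return by 72 h, ASPM for its late rise, and CDC25B for going down.
CDC20: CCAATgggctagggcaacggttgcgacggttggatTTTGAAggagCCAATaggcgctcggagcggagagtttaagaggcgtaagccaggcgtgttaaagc
PLK1: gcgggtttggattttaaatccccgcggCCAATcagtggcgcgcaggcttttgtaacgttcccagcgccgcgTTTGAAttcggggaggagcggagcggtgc
CCNB1: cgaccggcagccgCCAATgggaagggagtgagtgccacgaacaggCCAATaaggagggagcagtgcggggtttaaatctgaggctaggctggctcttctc
PRC1: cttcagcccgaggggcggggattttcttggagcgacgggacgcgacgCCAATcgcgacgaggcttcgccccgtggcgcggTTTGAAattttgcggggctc
KIF4A: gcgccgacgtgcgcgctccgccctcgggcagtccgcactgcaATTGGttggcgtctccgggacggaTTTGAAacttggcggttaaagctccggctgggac
CDC25A: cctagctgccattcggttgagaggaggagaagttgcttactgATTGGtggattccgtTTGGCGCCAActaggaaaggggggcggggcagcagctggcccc
ASPM: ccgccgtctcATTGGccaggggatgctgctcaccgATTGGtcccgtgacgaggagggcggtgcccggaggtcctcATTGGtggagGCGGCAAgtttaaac
CDC25B: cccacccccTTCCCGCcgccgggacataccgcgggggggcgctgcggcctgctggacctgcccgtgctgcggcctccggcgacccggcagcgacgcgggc
These stretches are at chr1:43358881-43358980 (plus strand) for CDC20, chr16:23678789-23678888 (plus strand) for PLK1, chr5:69167050-69167149 (plus strand) for CCNB1, chr15:90994536-90994635 (minus strand) for PRC1, chrX:70290004-70290103 (plus strand) for KIF4A, chr3:48188418-48188517 (minus strand) for CDC25A, chr1:197146670-197146769 (minus strand) for ASPM and chr20:3786851-3786950 (plus strand) for CDC25B. The capitals in CDC20, PLK1, PRC1 and KIF4A include TTTGAA on the strand shown, while ATTGG is CCAAT read on the other strand. In CDC25A the run of 10 capitals is an E2F match on each strand, overlapping each other. The stretch of CDC25B held an E2F match and neither CHR nor CCAAT letters.

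Over the whole windows, CHR letters were in 28 of 43 members (65.1%), against 16.6% of all 27305 RefSeq windows. CCAAT letters were in 31 members (72.1%), against 35.7% of all windows. E2F letters were in 13 members (30.2%), against 13.1% of all windows. TEAD letters were in 2 members, KIF2C and HMMR (4.65%), against 14.0% of all windows. In the 150 bases closest to the start, from 100 before to 50 after, CHR letters were in 24 members (55.8%, against 7.43% of all windows) and CCAAT letters in 26 (60.5%, against 22.04%). E2F letters were in 7 there (16.3%, against 7.28%) and TEAD letters in 2 (4.65%, against 7.13%). The median log2 fold change after 24 h was 1.61 over members with CHR letters (n = 28, 0.81 to 3.38) and 2.05 over those without (n = 15, -0.83 to 2.99). For CCAAT letters the medians were 1.79 with (n = 31) and 1.46 without (n = 12). A match is a description of letters and not a bound site, and a window without a match says only that those letters are not in it. Sequence farther from the gene starts, where TAZ may bind through TEAD factors, was not searched. WEE1, PKMYT1, AURKA, FOXM1, UBE2C, TPX2 and RACGAP1 had no window.

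**Figure D1:**
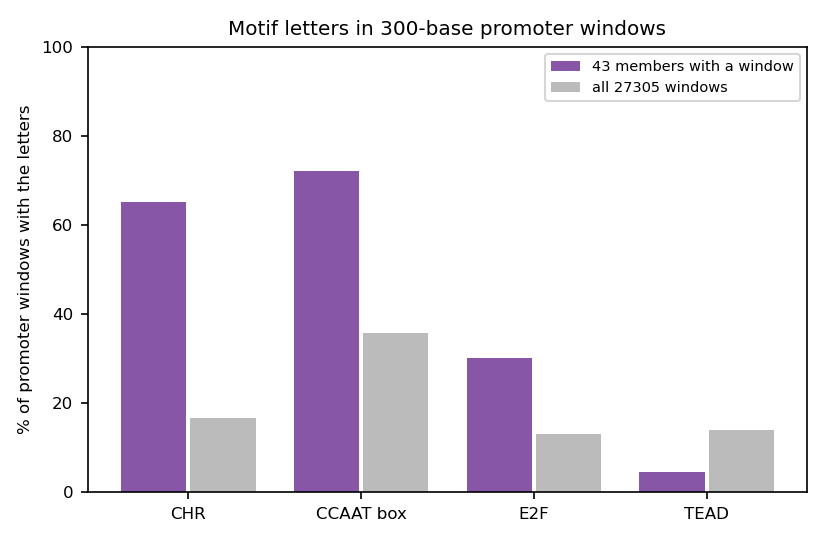
Share of promoter windows of 300 bases that hold the letters of each motif, in percent, for the 43 members with a window (purple) and for all 27305 RefSeq windows (grey). CHR letters were in 65.1% of member windows against 16.6% of all windows, and TEAD letters in 4.65% against 14.0% (against 7.13% in the shorter window).

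Library totals were 15382564 to 26570132 expected counts (read counts estimated by RSEM). WWTR1, the gene of TAZ, was at 26.6 ± 2.88 TPM without Dox and 1002 ± 145, 994 ± 152 and 1126 ± 127 TPM at 24, 48 and 72 h (SD, n = 3 each), where TPM is a level per transcript length, scaled to the same total in each library. A gene-level value does not separate the resident gene from the transgene. All 8 epithelial markers were at 1 TPM or more in every group, while of 14 markers of leukocytes, endothelium, fibroblasts and adipocytes 3 reached 1 TPM without Dox and 2, 1 and 1 at 24, 48 and 72 h. The summed level of the epithelial markers was 5308 to 5636 TPM without Dox, 3654 to 3923 TPM at 24 h, 4996 to 5089 TPM at 48 h and 5669 to 6152 TPM at 72 h. The summed level of the fibroblast and adipocyte markers was 0.24 to 12.3 TPM in Dox libraries, against 32.5 to 33.9 TPM without Dox. That of the leukocyte markers was 1.61 to 3.91 TPM, against 16.4 to 24.3 TPM without Dox, and that of the endothelial markers 0 to 0.19 TPM, against 1.97 to 3.59 TPM without Dox. Among these, CD3E and PDGFRA were listed at 0 in every library. Mitochondrial rRNA, which took 0.169 to 0.244% of counts in Dox libraries, took 0.786 to 0.829% without Dox. The part of these shifts in the results below was not tested.

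Below, levels are CPM (read counts brought to a common library size with edgeR's TMM factors) in replicate order, and differences are log2 fold changes from edgeR's quasi-likelihood test, with p-values adjusted by Benjamini-Hochberg over 14822 genes. A gene was called when its log2 fold change was 1 or more in either direction and its adjusted p was below 0.05, and "upregulated", "rose" and "fell" against No Dox mean called. SEs of the members' log2 fold changes against No Dox were 0.05 to 0.10. The 3 comparisons with No Dox share the same 3 control libraries.

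The mitotic genes were upregulated nearly as a block within the first day. After 24 h of Dox, 47 of 50 members were called higher and 0 lower, where 11.9% of all genes tested were called higher and 17.7% lower. After 48 h, 46 were called higher and 1 lower (10.6% and 14.4% of all genes), and after 72 h, 49 higher and 0 lower (10.1% and 12.3% of all genes). The members' median log2 fold change was 1.79, 1.53 and 1.65 at 24, 48 and 72 h, while the median over all genes tested was -0.03, -0.01 and -0.02. The count of 0 lower at 24 and at 72 h was also 0 in DESeq2 and in limma on TPM, and without the fold threshold it was 1, CDC25B, at both times. All called members had an adjusted p of 3.27e-08 or less. In every Dox library 49 members were above every library without Dox, and 1, CDC25B, was below. The share of all genes that separated in this way was not counted. Without the fold threshold, 37% of all genes tested were higher and 38.2% lower at 24 h.

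Per transcript length, the members' share of all transcripts grew in the same way. Their summed TPM was 1587 ± 14.2 without Dox, 6051 ± 223 after 24 h, 5204 ± 93.5 after 48 h and 5620 ± 237 after 72 h (SD, n = 3 each), or 0.159%, 0.605%, 0.520% and 0.562% of all transcripts. In bulk RNA, a larger share of cells in G2 and mitosis and more of these RNAs per cell cannot be told apart. Replicates were close, with a median coefficient of variation over members of 3.52% without Dox and 4.16%, 4.21% and 3.96% at 24, 48 and 72 h.

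**Figure D2:**
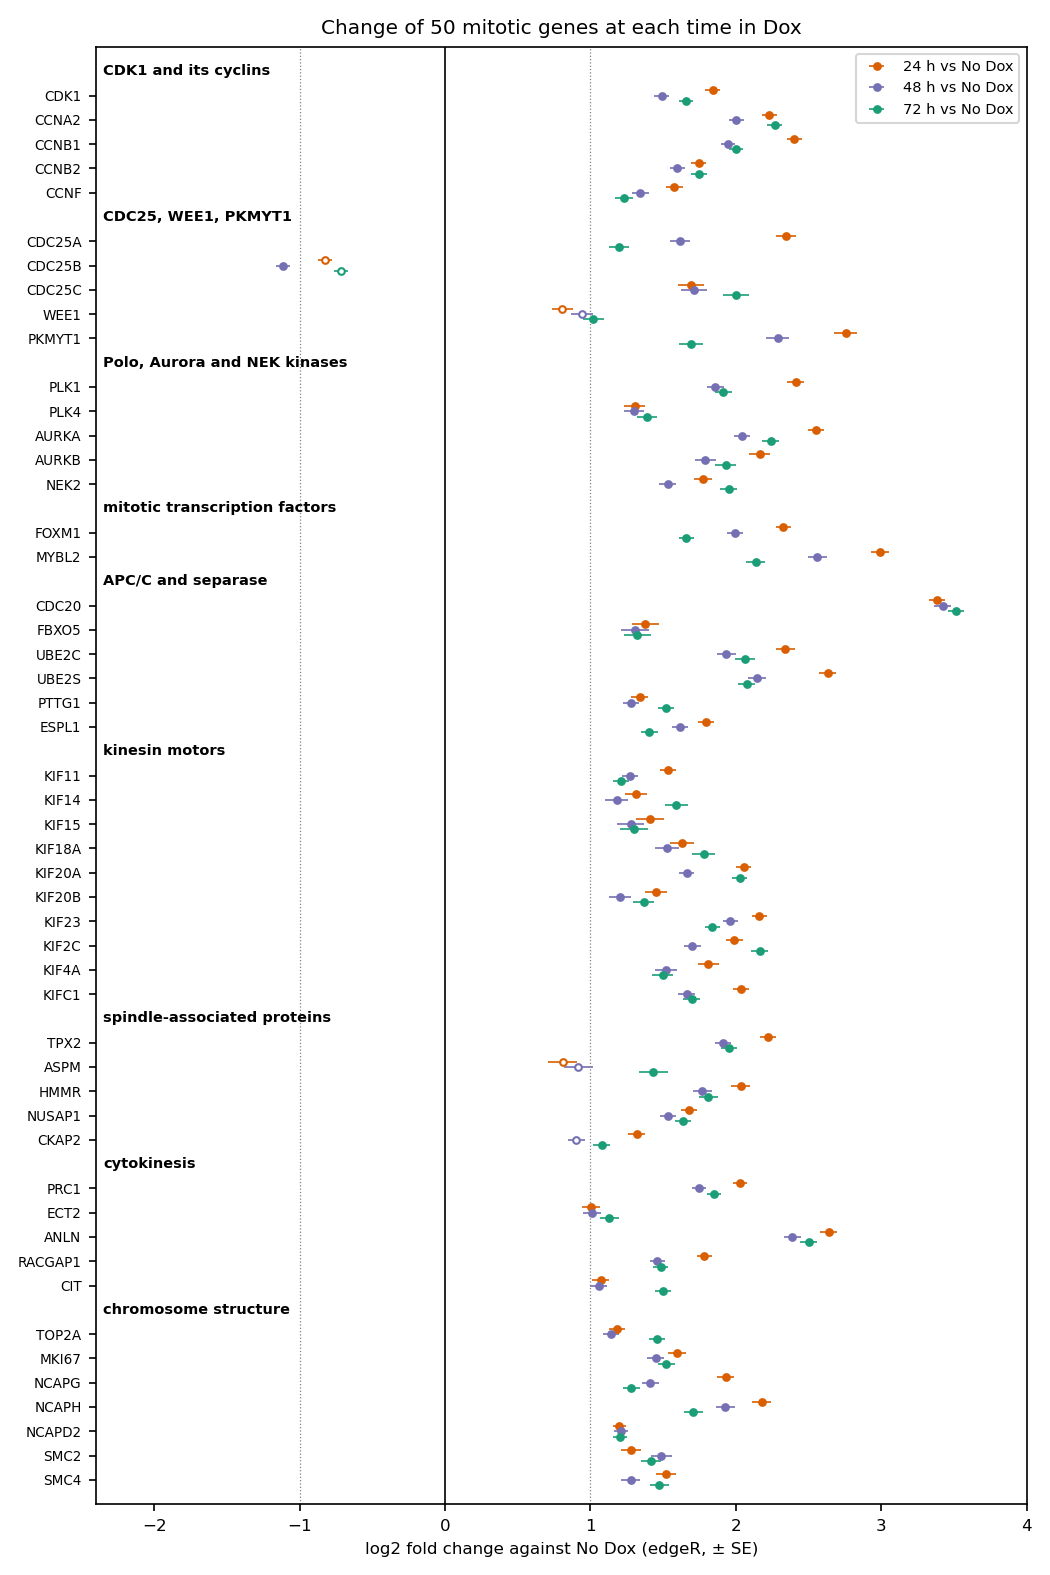
Log2 fold change of each of the 50 members against No Dox (edgeR, ± SE) after 24 h (orange), 48 h (violet) and 72 h (green) of Dox, ordered by role, with 3 libraries per group. Filled points were called, open points were not, and dotted lines mark the threshold of 1; only CDC25B lies left of 0, and CDC20 lies farthest right, at 3.38, 3.42 and 3.51.

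CDK1 and all 4 cyclins of the set were upregulated at each time, CCNB1 the most at 24 h and CCNA2 the most at 72 h. CDK1 is the kinase that starts mitosis. CDK1 was at 60.9, 59.6 and 60.1 CPM without Dox, 207, 222 and 218 CPM after 24 h, 165, 171 and 172 CPM after 48 h and 195, 184 and 191 CPM after 72 h. Its libraries were highest at 24 h, lowest of the Dox groups at 48 h and in between at 72 h, with no overlap between any 2 groups. Its log2 fold changes against No Dox were 1.84, 1.49 and 1.66 at 24, 48 and 72 h. CCNB1, cyclin B1, is the mitotic partner of CDK1. The libraries gave CCNB1 83.8, 81.6 and 85.1 CPM without Dox, 447, 455 and 423 CPM at 24 h, 327, 319 and 321 CPM at 48 h and 333, 323 and 348 CPM at 72 h. The 24 h libraries stood above those of 48 and 72 h, which overlapped each other. The log2 fold changes of CCNB1 were 2.40, 1.95 and 2.0. CCNA2, cyclin A2, serves S phase and the approach to mitosis. Levels of CCNA2 were 52.1, 50.3 and 52.1 CPM without Dox, 235, 249 and 241 CPM at 24 h, 203, 218 and 198 CPM at 48 h and 241, 248 and 254 CPM at 72 h. Its 24 and 72 h libraries overlapped and the 48 h libraries lay below both, with log2 fold changes of 2.23, 2.0 and 2.27. CCNB2, the second B-type cyclin, rose with log2 fold changes of 1.74, 1.60 and 1.75. CCNF, an F-box protein with a cyclin domain that directs ubiquitination, rose the least of the 5 at 24 h. CCNF had 28.7, 26.7 and 26.9 CPM without Dox, 84.2, 79.2 and 82.3 CPM after 24 h, 70.4, 67.0 and 71.8 CPM after 48 h and 64.6, 65.6 and 63.0 CPM after 72 h. The 3 Dox groups did not overlap and stepped down with time, with log2 fold changes of 1.58, 1.34 and 1.23.

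The enzymes that switch CDK1 on and off did not move as 1 group. PKMYT1, CDC25A and CDC25C were upregulated at all 3 times, WEE1 at 72 h, and CDC25B was the single member below its No Dox level. CDC25B (ENSG00000101224, chromosome 20, 3786772 to 3806121, plus strand, GRCh38) activates CDK1 and cyclin B at the centrosome in G2. CDC25B was at 282, 280.2 and 289 CPM without Dox, 166, 151 and 163 CPM after 24 h, 139, 124 and 129.9 CPM after 48 h and 169, 175 and 173 CPM after 72 h. Every Dox library was below every library without Dox, and the 48 h libraries were the lowest. Its log2 fold change was -0.83 ± 0.05 (SE, adjusted p = 2.8e-14) at 24 h, -1.11 ± 0.05 (SE, adjusted p = 5.3e-17) at 48 h, where it was called lower, and -0.72 ± 0.05 (SE, adjusted p = 7.52e-13) at 72 h. CDC25A (ENSG00000164045, chromosome 3, 48157146 to 48188417, minus strand), which acts on CDK2 as well as CDK1, went the other way. The libraries gave CDC25A 19.5, 20.3 and 19.9 CPM without Dox, 101, 99.2 and 103 CPM at 24 h, 59.3, 62.7 and 60.4 CPM at 48 h and 41.8, 48.7 and 46.5 CPM at 72 h. All Dox libraries were above all libraries without Dox, and the 3 Dox groups separated, highest at 24 h and lowest at 72 h. The log2 fold changes of CDC25A were 2.34, 1.61 and 1.20. CDC25C is the phosphatase best known for the mitotic switch. Levels of CDC25C were 10.2, 11.2 and 12.9 CPM without Dox, 40.2, 36.2 and 34.1 CPM at 24 h, 36.8, 37.7 and 37.7 CPM at 48 h and 43.7, 43.02 and 50.1 CPM at 72 h. Its 72 h libraries lay above those of 24 and 48 h, which overlapped, with log2 fold changes of 1.69, 1.71 and 2.0.

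WEE1 is the nuclear kinase that puts the inhibitory phosphate on CDK1. WEE1 had 30.6, 32.6 and 31.7 CPM without Dox, 48.2, 60.04 and 57.9 CPM after 24 h, 59.2, 64.3 and 58.4 CPM after 48 h and 64.8, 67.1 and 60.8 CPM after 72 h. All Dox libraries were higher than those without Dox, but the log2 fold changes of 0.81, 0.94 and 1.02 reached the threshold at 72 h alone, and without 72 h replicate 2 that value was 0.99. PKMYT1 (ENSG00000127564, chromosome 16, 2968024 to 2980479, minus strand) does the same at membranes. PKMYT1 was at 17.2, 16.2 and 15.8 CPM without Dox, 113, 102 and 118 CPM after 24 h, 85.2, 76.5 and 78.9 CPM after 48 h and 59.9, 49.2 and 49.99 CPM after 72 h. It was highest at 24 h and lower at each later time with no overlap, and its log2 fold changes were 2.76, 2.29 and 1.69. The RSEM effective length of PKMYT1, which follows the mix of its transcripts, was 1292 ± 24.9, 1268 ± 43.5 and 1162 ± 155 bases at 24, 48 and 72 h, against 910 ± 28.4 bases without Dox (SD, n = 3 each), with no overlap at any time (exact permutation test over libraries, two-sided, p = 0.1 each, the smallest that 3 against 3 allows). In TPM, which corrects for length, PKMYT1 was at 105 ± 4.88, 78.9 ± 0.524 and 57.4 ± 2.23 at 24, 48 and 72 h, against 21.5 ± 0.469 without Dox.

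**Figure D3:**
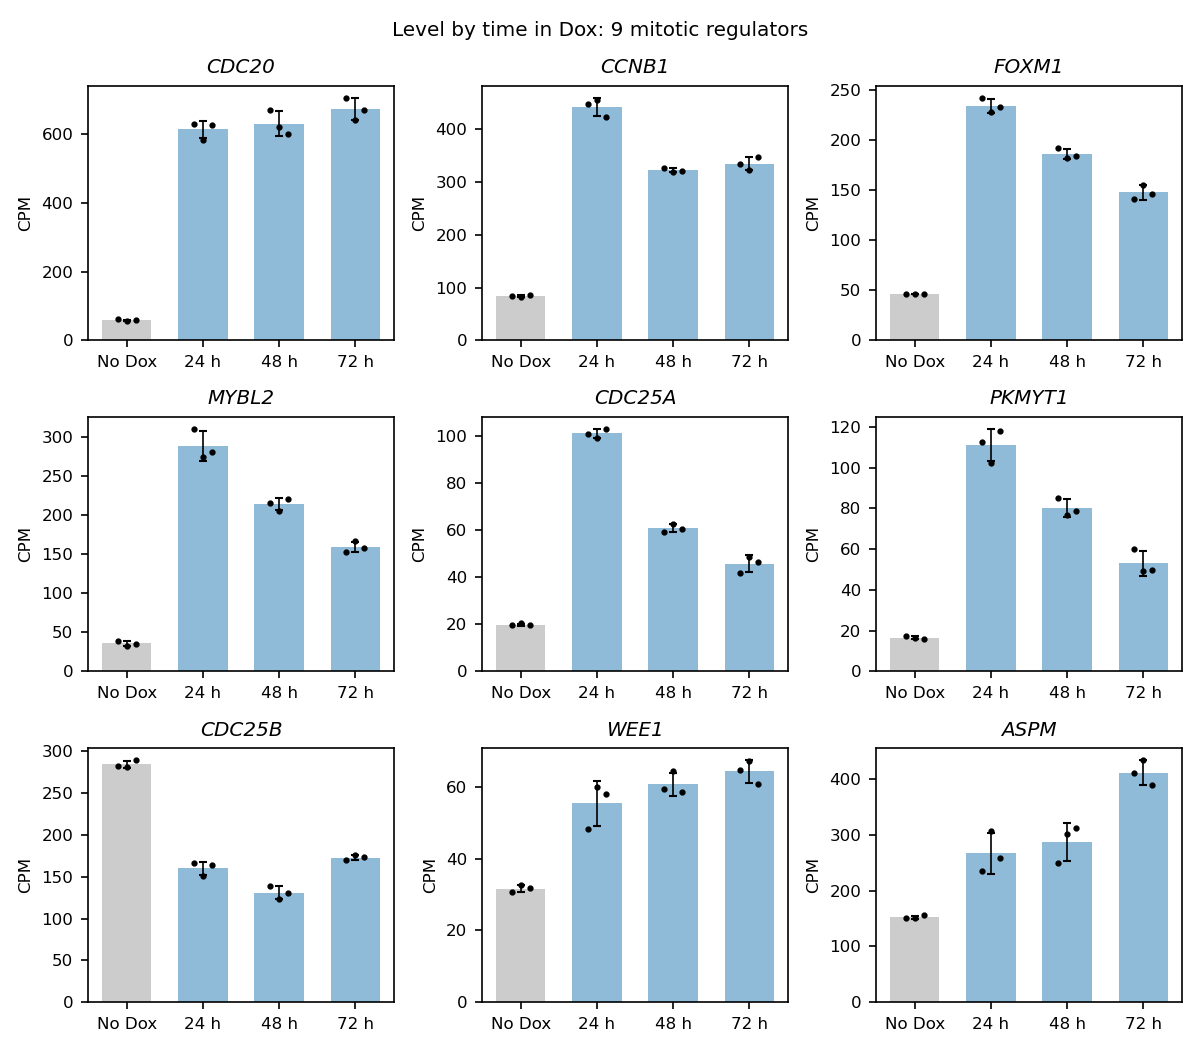
CPM of 9 members in each library (points) with the mean (bars, from 0) and SD (error bars), without Dox (grey) and after 24, 48 and 72 h of Dox (blue), n = 3 each. CDC20 stayed high at all 3 times, CCNB1, FOXM1, MYBL2, CDC25A and PKMYT1 were highest at 24 h, CDC25B was below its No Dox level throughout, and ASPM was highest at 72 h.

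The 5 mitotic kinases of the Polo, Aurora and NEK families were upregulated at each time. AURKA, which matures centrosomes and builds the spindle, had the largest change of the 5. The libraries gave AURKA 34.3, 38.6 and 38.3 CPM without Dox, 223, 215 and 211 CPM at 24 h, 150.3, 154 and 154 CPM at 48 h and 169.8, 174 and 179.8 CPM at 72 h. No 2 groups overlapped, and 24 h was the highest, followed by 72 h and then 48 h. Its log2 fold changes were 2.55, 2.04 and 2.24. PLK1 activates CDC25C and acts at centrosomes, kinetochores and the midzone. Levels of PLK1 were 54.7, 54.8 and 58.7 CPM without Dox, 316, 281 and 299 CPM at 24 h, 218, 193 and 199 CPM at 48 h and 205, 216 and 213 CPM at 72 h. The 24 h libraries were the highest and those of 48 and 72 h overlapped, with log2 fold changes of 2.41, 1.86 and 1.91. AURKB, the kinase of the chromosomal passenger complex, corrects faulty attachments to the spindle. AURKB had 19.4, 22.9 and 22.8 CPM without Dox, 99.8, 91.7 and 99.6 CPM after 24 h, 80.6, 74.2 and 69.4 CPM after 48 h and 80.1, 85.0 and 82.2 CPM after 72 h. It too was highest at 24 h, and its 48 and 72 h libraries overlapped, with log2 fold changes of 2.16, 1.79 and 1.93. PLK4, which starts centriole duplication, changed the least of the group. PLK4 was at 21.9, 21.0 and 21.5 CPM without Dox, 50.3, 56.7 and 52.0 CPM after 24 h, 50.1, 54.0 and 54.5 CPM after 48 h and 53.3, 59.4 and 56.1 CPM after 72 h. Its 3 Dox groups overlapped one another, with log2 fold changes of 1.30, 1.30 and 1.39. NEK2, which separates centrosomes, rose with log2 fold changes of 1.77, 1.53 and 1.95 and was highest at 72 h.

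FOXM1 and MYBL2, the transcription factors that drive many other members, were both upregulated and both stepped down afterwards. The libraries gave FOXM1 46.7, 46.7 and 46.7 CPM without Dox, 242, 228 and 233 CPM at 24 h, 192, 182 and 184 CPM at 48 h and 141, 155 and 146 CPM at 72 h. The No Dox libraries were nearly identical and the 3 Dox groups stood apart from each other in time order, highest first. The log2 fold changes of FOXM1 were 2.33, 1.99 and 1.66. MYBL2 (B-MYB) had the second largest change of all members at 24 h. Levels of MYBL2 were 39.5, 33.0 and 35.7 CPM without Dox, 309.9, 274 and 280.5 CPM at 24 h, 216, 205 and 220.3 CPM at 48 h and 153, 166 and 158 CPM at 72 h. Its Dox groups likewise did not overlap and were lower at each later time, with log2 fold changes of 2.99, 2.56 and 2.14.

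All 6 APC/C-related members were upregulated at all 3 times, and CDC20 changed the most of the whole set. CDC20 is the coactivator that opens the APC/C to its mitotic substrates and the target of the spindle checkpoint (ENSG00000117399, chromosome 1, 43358981 to 43363203, plus strand, GRCh38). CDC20 had 60.9, 57.2 and 58.4 CPM without Dox, 630.4, 585 and 628 CPM after 24 h, 672, 622 and 601 CPM after 48 h and 705, 642 and 671 CPM after 72 h. Every Dox library was far above every library without Dox, and the 48 h libraries overlapped those of 24 and of 72 h. Its log2 fold changes were 3.38 ± 0.06 (SE, adjusted p = 1.7e-26) at 24 h, 3.42 ± 0.06 (SE, adjusted p = 1.53e-26) at 48 h and 3.51 ± 0.06 (SE, adjusted p = 7.54e-27) at 72 h, or 10.4-fold, 10.7-fold and 11.4-fold. Its CCAAT letters are those printed in the stretch above, which also holds a CHR match. A further CHR match of CDC20 lies in its whole window, upstream of that stretch. UBE2S, the ubiquitin-conjugating enzyme that extends ubiquitin chains for the APC/C, was at 555, 515 and 585 CPM after 24 h, against 88.7, 86.0 and 92.4 CPM without Dox, with log2 fold changes of 2.63, 2.15 and 2.08. UBE2C, which starts those chains, was close behind. UBE2C was at 29.7, 27.4 and 31.4 CPM without Dox, 153, 146 and 151 CPM after 24 h, 120.4, 108 and 111 CPM after 48 h and 114, 123 and 133 CPM after 72 h. The 24 h libraries were the highest and those of 48 and 72 h overlapped, with log2 fold changes of 2.34, 1.93 and 2.06. FBXO5 (EMI1) inhibits the APC/C before mitosis. The libraries gave FBXO5 12.2, 16.5 and 16.0 CPM without Dox, 35.4, 41.5 and 38.7 CPM at 24 h, 34.5, 38.1 and 37.2 CPM at 48 h and 37.1, 39.1 and 35.2 CPM at 72 h. The Dox groups overlapped one another, and the log2 fold changes were 1.38, 1.31 and 1.32. PTTG1, securin, holds separase inactive. Levels of PTTG1 were 74.0, 73.7 and 78.6 CPM without Dox, 195, 186 and 191 CPM at 24 h, 190.1, 184 and 176 CPM at 48 h and 207, 206 and 235 CPM at 72 h. The 72 h libraries were above those of 24 and 48 h, which overlapped, with log2 fold changes of 1.34, 1.28 and 1.52, the smallest of the 6 at 24 h. ESPL1, separase itself, had log2 fold changes of 1.79, 1.62 and 1.41 and was lower at each later time.

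Of 15 genes of the APC/C enzyme itself, the core subunits with FZR1, 2 were called higher at 24 h and 1 each at 48 and 72 h (11.9%, 10.6% and 10.1% of all genes), 0 were called lower, and the median log2 fold changes were 0.35, 0.25 and 0.08. By edgeR's adjusted p under 0.05 alone, with no fold threshold, 10, 8 and 6 were higher and 0, 1 and 3 lower, where 37%, 36% and 34.2% of all genes were higher and 38.2%, 35.8% and 34.8% lower. The called genes were ANAPC15, a subunit tied to turnover of the checkpoint complex, at 39.0 ± 1.497 CPM after 24 h, against 14.8 ± 0.162 CPM without Dox (log2 fold changes 1.39, 1.40 and 1.30), and CDC26, a small structural subunit, at 50.004 ± 2.08 CPM after 24 h, against 21.9 ± 1.44 CPM without Dox (1.19 at 24 h). FZR1 (CDH1), the coactivator that replaces CDC20 after mitosis, had log2 fold changes of 0.64, 0.32 and -0.02, none of them called.

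All 10 kinesin motors were upregulated at each time, with median log2 fold changes of 1.72, 1.52 and 1.64. KIF23 (MKLP1), part of the centralspindlin complex of the midzone, had the largest change at 24 h. KIF23 had 46.4, 45.8 and 48.8 CPM without Dox, 206, 216 and 209.5 CPM after 24 h, 181, 184 and 185 CPM after 48 h and 162, 175 and 167 CPM after 72 h. Its Dox groups did not overlap and were lower at each later time, with log2 fold changes of 2.16, 1.96 and 1.84. KIF14, a cytokinesis motor, had the smallest change at 24 h. KIF14 was at 56.6, 55.5 and 56.6 CPM without Dox, 126, 157 and 137 CPM after 24 h, 114, 127 and 143 CPM after 48 h and 175, 170.4 and 163 CPM after 72 h. Its 24 and 48 h libraries overlapped and the 72 h libraries were above both, with log2 fold changes of 1.31, 1.18 and 1.59. KIF11 (Eg5) pushes the spindle poles apart. The libraries gave KIF11 50.5, 49.4 and 52.4 CPM without Dox, 144, 153 and 145 CPM at 24 h, 123, 117 and 129 CPM at 48 h and 113, 123 and 116 CPM at 72 h. The 24 h libraries were the highest and those of 48 and 72 h overlapped, with log2 fold changes of 1.54, 1.27 and 1.21. KIF20A (MKLP2) carries the passenger complex to the midzone. Levels of KIF20A were 60.3, 56.0 and 59.6 CPM without Dox, 243, 249 and 239 CPM at 24 h, 185, 189 and 182 CPM at 48 h and 227, 249.998 and 241 CPM at 72 h. The 48 h libraries were below those of 24 and 72 h, which overlapped, with log2 fold changes of 2.05, 1.66 and 2.03. KIF2C (MCAK), which takes microtubules apart at centromeres, had log2 fold changes of 1.99, 1.70 and 2.17 and was highest at 72 h. KIFC1 (HSET), the minus-end motor that focuses poles, had 2.04, 1.66 and 1.70 and was highest at 24 h. The log2 fold changes of the other 4, the chromokinesin KIF4A, the chromosome-aligning KIF18A, the cytokinesis motor KIF20B and KIF15, were 1.20 to 1.81 over the 3 times. KIF15, which can stand in for KIF11, had the lowest TPM of all members in every group, 15.4 ± 3.48 TPM at 24 h against 5.56 ± 1.01 TPM without Dox.

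Of 15 kinesins that move cargo rather than chromosomes, 13 were expressed enough to be tested. At 24, 48 and 72 h, 2, 3 and 3 were called higher (11.9%, 10.6% and 10.1% of all genes) and 1, 1 and 0 lower (17.7%, 14.4% and 12.3% of all genes). By adjusted p alone 5, 5 and 4 were higher (37%, 36% and 34.2% of all genes) and 5, 5 and 4 lower (38.2%, 35.8% and 34.8% of all genes). The median log2 fold changes were 0.08, -0.04 and -0.07. KIF21B, a neuronal and immune cell motor, was at 22.9 ± 2.09 CPM at 48 h, against 2.67 ± 0.484 CPM without Dox (log2 fold change 3.09). KIF17 and KIF5C were called higher at all 3 times from levels under 1 CPM without Dox, KIF17 at 2.27 ± 0.303 CPM after 24 h, against 0.160 ± 0.0585 CPM without Dox. KIF13B was called lower at 24 and 48 h, at 11.6 ± 1.28 CPM at 24 h, against 31.2 ± 0.872 CPM without Dox (log2 fold change -1.43).

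Of the 5 spindle-associated proteins, TPX2, HMMR and NUSAP1 rose at each time, CKAP2 at 24 and 72 h and ASPM at 72 h. TPX2, which activates AURKA on the spindle, had the largest change. TPX2 had 85.0, 74.5 and 81.4 CPM without Dox, 387, 368 and 369 CPM after 24 h, 307, 291 and 309.9 CPM after 48 h and 301, 319 and 313 CPM after 72 h. The 24 h libraries were the highest and those of 48 and 72 h overlapped, with log2 fold changes of 2.22, 1.91 and 1.95. ASPM (ENSG00000066279, chromosome 1, 197084121 to 197146694, minus strand) sits at spindle poles and is the gene most often mutated in primary microcephaly. ASPM was at 151, 150.1 and 155 CPM without Dox, 235, 306 and 258 CPM after 24 h, 248, 301 and 312 CPM after 48 h and 410.0, 433 and 388 CPM after 72 h. Every Dox library was above those without Dox, the 24 and 48 h libraries overlapped, and the 72 h libraries were the highest. Its log2 fold changes were 0.81 ± 0.10 (SE, adjusted p = 7.69e-06), 0.92 ± 0.10 (SE, adjusted p = 2.54e-06) and 1.43 ± 0.10 (SE, adjusted p = 3.27e-08) at 24, 48 and 72 h. The effective length of ASPM was 5318 ± 521 bases at 24 h and 5413 ± 330 bases at 48 h, against 6283 ± 38.7 bases without Dox (exact permutation test over libraries, two-sided, p = 0.1 each, the smallest possible). Besides PKMYT1 and ASPM, mean length moved by over 10% against No Dox, with no overlap, in MKI67 (-15.0%) and SMC4 (14.0%) at 24 h. It did so too in KIF18A at 24 h (12.2%) and 48 h (10.7%), UBE2S at 48 h (-13.1%) and CKAP2 at 72 h (-11.9%). With effective lengths in the edgeR fit, ASPM was called higher at 24 and 48 h too, with log2 fold changes of 1.03 to 1.17 over the length-corrected settings and in TPM. CKAP2, a microtubule stabiliser, fell short of the threshold at 48 h. The libraries gave CKAP2 59.9, 54.8 and 57.8 CPM without Dox, 140.4, 154 and 136 CPM at 24 h, 100.2, 111 and 111 CPM at 48 h and 119.5, 122 and 123 CPM at 72 h. Its 24 h libraries were the highest and its 48 h libraries the lowest of the Dox groups, with no overlap, and the log2 fold changes were 1.32, 0.90 and 1.08. HMMR, a receptor for hyaluronan that also binds the spindle, had 2.03, 1.77 and 1.81. NUSAP1, which bundles spindle microtubules near chromosomes, had 1.68, 1.53 and 1.64.

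All 5 cytokinesis members were called higher at each time, with log2 fold changes at 24 h from 1.0 for ECT2 to 2.64 for ANLN. ANLN (anillin) ties the contractile ring to the membrane. Levels of ANLN were 94.5, 96.3 and 97.7 CPM without Dox, 564, 657 and 575 CPM at 24 h, 471, 519.7 and 519 CPM at 48 h and 556, 545 and 533 CPM at 72 h. The 3 Dox groups did not overlap, highest at 24 h and lowest at 48 h, and the log2 fold changes were 2.64, 2.39 and 2.50. ECT2, the exchange factor that activates RhoA at the equator, was the smallest. ECT2 had 84.9, 83.9 and 85.5 CPM without Dox, 153, 189 and 168 CPM after 24 h, 158, 178 and 177 CPM after 48 h and 186, 188 and 183 CPM after 72 h. Its 24 h libraries overlapped those of both later times, with log2 fold changes of 1.0, 1.01 and 1.13, so close to the threshold that the call was lost at 24 h in 9 settings (lowest value 0.92) and at 48 h in 7 (lowest value 0.96). PRC1, which bundles midzone microtubules, had 2.03, 1.75 and 1.85 and RACGAP1, the partner of KIF23, had 1.78, 1.46 and 1.48. CIT (citron kinase), which acts at the midbody, had 1.07, 1.06 and 1.5 and was highest at 72 h, its call at 24 and 48 h being lost in 4 settings each (lowest values 0.97 and 0.98). Of 15 other RhoA, septin and abscission genes only CEP55, the midbody scaffold, was called, higher at each time (134.8 ± 5.87 CPM after 24 h, against 24.3 ± 1.71 CPM without Dox, log2 fold changes 2.47, 2.24 and 2.35), where 11.9%, 10.6% and 10.1% of all genes were called higher. By adjusted p alone 5, 7 and 5 of the 15 were higher (37%, 36% and 34.2% of all genes) and 4, 2 and 4 lower (38.2%, 35.8% and 34.8% of all genes). The medians were 0.04, 0.08 and 0.08. RHOA itself was at 443 ± 8.38 CPM after 24 h, against 398 ± 4.21 CPM without Dox (log2 fold change 0.15).

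All 7 genes of chromosome structure rose at each time. TOP2A untangles sister DNA. TOP2A was at 239.8, 243 and 236 CPM without Dox, 505, 587 and 541 CPM after 24 h, 487, 548 and 549 CPM after 48 h and 661, 669 and 640.2 CPM after 72 h. The 24 and 48 h libraries overlapped and the 72 h libraries were above both, with log2 fold changes of 1.18, 1.14 and 1.46, the smallest of the 7 at 24 h. MKI67, the Ki-67 proliferation marker, coats mitotic chromosomes. The libraries gave MKI67 210.3, 191 and 210.4 CPM without Dox, 607, 621 and 621 CPM at 24 h, 526, 552 and 594 CPM at 48 h and 546, 643 and 567 CPM at 72 h. Its 24 and 72 h libraries overlapped, as did those of 72 and 48 h, with log2 fold changes of 1.59, 1.45 and 1.52. NCAPH, the kleisin of condensin I, had the largest change. Levels of NCAPH were 16.8, 17.6 and 19.6 CPM without Dox, 81.9, 82.1 and 80.5 CPM at 24 h, 66.8, 68.3 and 70.4 CPM at 48 h and 57.9, 59.7 and 58.9 CPM at 72 h. Its Dox groups did not overlap and were lower at each later time, with log2 fold changes of 2.18, 1.93 and 1.71. NCAPG, another condensin I subunit, had 1.93, 1.41 and 1.28, while NCAPD2, the third, had 1.20, 1.21 and 1.20 with overlapping Dox groups. SMC2 and SMC4, the ATPases of both condensins, had 1.28, 1.49 and 1.41 and 1.52, 1.28 and 1.47.

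Condensin II and cohesin are the other large chromosome complexes. Of 3 condensin II subunits, 3, 3 and 1 were called higher at 24, 48 and 72 h (11.9%, 10.6% and 10.1% of all genes). Their median log2 fold changes were 1.19, 1.11 and 0.97, with a lowest value of 0.53 at 72 h. NCAPG2 had the largest, at 143 ± 7.97 CPM after 24 h, against 43.9 ± 1.85 CPM without Dox (log2 fold changes 1.70, 1.64 and 1.65). Of 11 cohesin genes and regulators, 2, 2 and 1 were called higher (11.9%, 10.6% and 10.1% of all genes) and 0 lower (17.7%, 14.4% and 12.3% of all genes). By adjusted p alone 7, 7 and 6 were higher (37%, 36% and 34.2% of all genes) and 3, 3 and 2 lower (38.2%, 35.8% and 34.8% of all genes). The medians were 0.18, 0.28 and 0.26. Those called were CDCA5 (sororin), which locks cohesin on replicated DNA (log2 fold changes 2.10, 1.70 and 1.51), and SMC1A (1.29 and 1.16 at 24 and 48 h). RAD21, the cohesin kleisin that separase cuts, was at 408 ± 17.2 CPM after 24 h, against 364 ± 2.77 CPM without Dox (log2 fold change 0.16).

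The MuvB core and pocket protein genes encode the regulators that read the CHR. Of 11, 1 was called higher (11.9% and 10.6% of all genes) and 1 lower (17.7% and 14.4%) at 24 and at 48 h, and 0 at 72 h. By edgeR's adjusted p under 0.05 without the fold threshold, 7, 7 and 5 were higher (37%, 36% and 34.2% of all genes) and 2, 2 and 3 lower (38.2%, 35.8% and 34.8% of all genes). The median log2 fold changes were 0.58, 0.37 and 0.15. RBL2 (p130), the pocket protein of DREAM, was called lower, at 42.0 ± 3.15 CPM after 24 h and 53.5 ± 5.04 CPM after 48 h, against 111 ± 1.08 CPM without Dox (log2 fold changes -1.40 and -1.06), and had -0.42 at 72 h. LIN52, a MuvB subunit, was called higher at 24 and 48 h, at 13.4 ± 1.23 CPM after 24 h, against 6.28 ± 0.839 CPM without Dox (1.09 at both times). Of 8 genes of the Greatwall kinase and PP2A-B55 phosphatase switch, 8, 7 and 5 were higher by adjusted p alone (37%, 36% and 34.2% of all genes). By the same rule 0 were lower (38.2%, 35.8% and 34.8% of all genes), and the medians were 0.51, 0.44 and 0.30. With the fold threshold 1 was called higher at each time (11.9%, 10.6% and 10.1% of all genes), MASTL, the Greatwall kinase, at 34.6 ± 0.990 CPM after 24 h, against 14.7 ± 0.859 CPM without Dox (log2 fold changes 1.23, 1.42 and 1.29).

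The order of the members by TPM was rearranged by Dox. Without Dox the highest was PTTG1 at 194 ± 8.83 TPM, followed by CDC25B at 132 ± 2.35 and CCNB1 at 76.0 ± 2.84, and these neighbours did not overlap. CDC20, rank 9 without Dox at 51.6 ± 1.20 TPM, was first at each time in Dox, at 543 ± 6.79, 570.3 ± 15.6 and 610.2 ± 36.8 TPM. It stood clear of PTTG1 at 24 and 48 h, and the pair overlapped at 72 h. CDC25B, rank 2 without Dox, was rank 29, 31 and 24 at 24, 48 and 72 h. MYBL2 was rank 32 without Dox and rank 14, 16 and 23 in Dox. CCNB1 and UBE2S, rank 3 and 4 at 24 h, overlapped, and from AURKA down to AURKB at 24 h each neighbour overlapped the next. Across the 50 members, the log2 fold change at 24 h had no linear relation to log2 TPM without Dox (Pearson r = -0.01, Spearman rho = 0.16). With log2 effective length without Dox the relation was negative (r = -0.36, rho = -0.47). Both are descriptions over genes that share the same libraries.

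**Figure D4:**
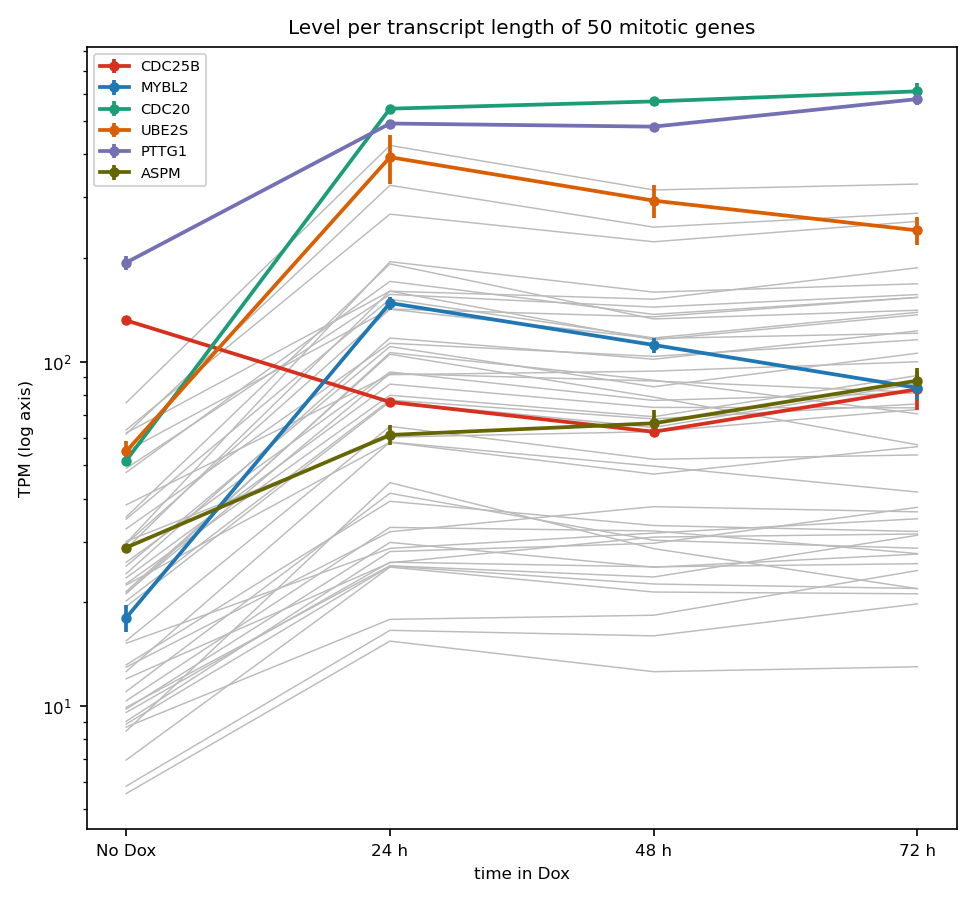
Mean TPM (log axis) of the 50 members without Dox and after 24, 48 and 72 h of Dox, n = 3 each, with SD for the 6 coloured members. CDC20 (green) passed PTTG1 (violet) to rank first in Dox, CDC25B (red) was rank 29 at 24 h, against rank 2 without Dox, and MYBL2 (blue) was rank 14 at 24 h and rank 23 at 72 h.

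Within Dox, 35 of 50 members were lower at 48 h than at 24 h by edgeR's adjusted p under 0.05, and 22 in limma on TPM. Here a second rule, an adjusted p under 0.05 with no fold threshold, is also used, and "rose" and "fell" refer to it. In 48 h against 24 h, 0 members were called with the fold threshold in either direction (3.08% of all genes higher and 1.42% lower), nor were any in DESeq2 or in limma on TPM. By adjusted p alone 35 members fell and 1, SMC2, rose, where 18.4% of all genes fell and 18.3% rose. The members' median log2 fold change was -0.25, against 0.0025 over all genes. The largest were CDC25A at -0.73 (adjusted p = 1.42e-10), PLK1 at -0.55 (adjusted p = 3.91e-09), NCAPG at -0.52 (adjusted p = 1.5e-08) and AURKA at -0.50 (adjusted p = 6.51e-09). SMC2 rose by 0.21 (adjusted p = 0.015) with overlapping libraries. That single rise was lost with effective lengths in the fit, in limma on TPM and in 4 of the 12 fits that left out 1 library, and without 24 h replicate 2 the count was 3.

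Between 48 and 72 h some members rose and others fell, as did genes at large. In 72 h against 48 h, 0 members were called with the fold threshold (2.3% of all genes higher and 0.951% lower), nor were any in DESeq2 or in limma on TPM, and by adjusted p alone 17 rose and 7 fell (18.5% and 20.2% of all genes), against 15 and 4 in limma on TPM. The median log2 fold change was 0.09. The 7 that fell, CDC25A, PKMYT1, FOXM1, MYBL2, ESPL1, KIF23 and NCAPH, had also fallen by 48 h. Of the 17 that rose, 10 had fallen by 48 h, namely CDK1, CCNA2, CCNB2, CDC25B, AURKA, NEK2, KIF20A, KIF2C, CKAP2 and SMC4. The other 7, CDC25C, PTTG1, KIF14, KIF18A, ASPM, CIT and TOP2A, had not passed at the first step. Neither step passed for WEE1, PLK4, CDC20, FBXO5, KIF15, ECT2 and NCAPD2. Both steps use the same 48 h libraries, so a fall at the first and a rise at the second are not independent results.

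Set directly against 24 h, the 72 h libraries had 2 members called lower and 0 higher, CDC25A and PKMYT1 (3.97% of all genes lower and 8.24% higher). By adjusted p alone 25 members were lower and 10 higher, where 30.2% of all genes were lower and 30.4% higher. CDC25A was at 41.8, 48.7 and 46.5 CPM at 72 h, against 100.9, 99.2 and 103 CPM at 24 h. The libraries did not overlap, and its log2 fold change was -1.15 ± 0.06 (SE, adjusted p = 6.37e-15). PKMYT1 was at 59.9, 49.2 and 49.99 CPM at 72 h, against 113, 102 and 118 CPM at 24 h, again with no overlap and a log2 fold change of -1.06 ± 0.07 (SE, adjusted p = 1.03e-12). The call of CDC25A was lost in 2 settings (-1.15 to -0.998) and that of PKMYT1 in 4 (-1.06 to -0.86), the direction in 0. MYBL2 followed at -0.86 ± 0.06 (SE, adjusted p = 9.35e-13) and FOXM1 at -0.67 ± 0.05 (SE, adjusted p = 5.21e-12).

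At the other end, ASPM was higher at 72 h than at 24 h by 0.62 ± 0.10 (SE, adjusted p = 0.000113), its 72 h libraries of 410, 433 and 388 CPM lying above the 24 h libraries of 235, 306 and 258 CPM. CIT had 0.43 ± 0.05 (SE, adjusted p = 1.31e-07) and CDC25C 0.31 ± 0.08 (SE, adjusted p = 0.0012). The other members higher by adjusted p alone were KIF14, TOP2A, WEE1, PTTG1, NEK2, KIF2C and CDC20, at 0.13 to 0.28. By role and by adjusted p alone, 2 of 2 transcription factors were lower at 72 h, where 30.2% of all genes were lower and 30.4% higher. So were 3 of 5 in each of CDK1 with its cyclins, the Polo, Aurora and NEK kinases, the spindle proteins and the cytokinesis group, and 3 of 6 APC/C genes. The counts of 4 of 10 kinesins and 2 of 7 chromosome genes were near the share of all genes, and all these groups are small. Of the CDK1 switch genes CDC25A and PKMYT1 were lower while CDC25C and WEE1 were higher. The members' median log2 fold change was -0.12, against 0.01 over all genes, and -0.07 without 24 h replicate 2. Of the 3 Dox groups, 24 h had the highest mean CPM for 32 members, 48 h for 2 and 72 h for 16, while 48 h had the lowest for 31.

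**Figure D5:**
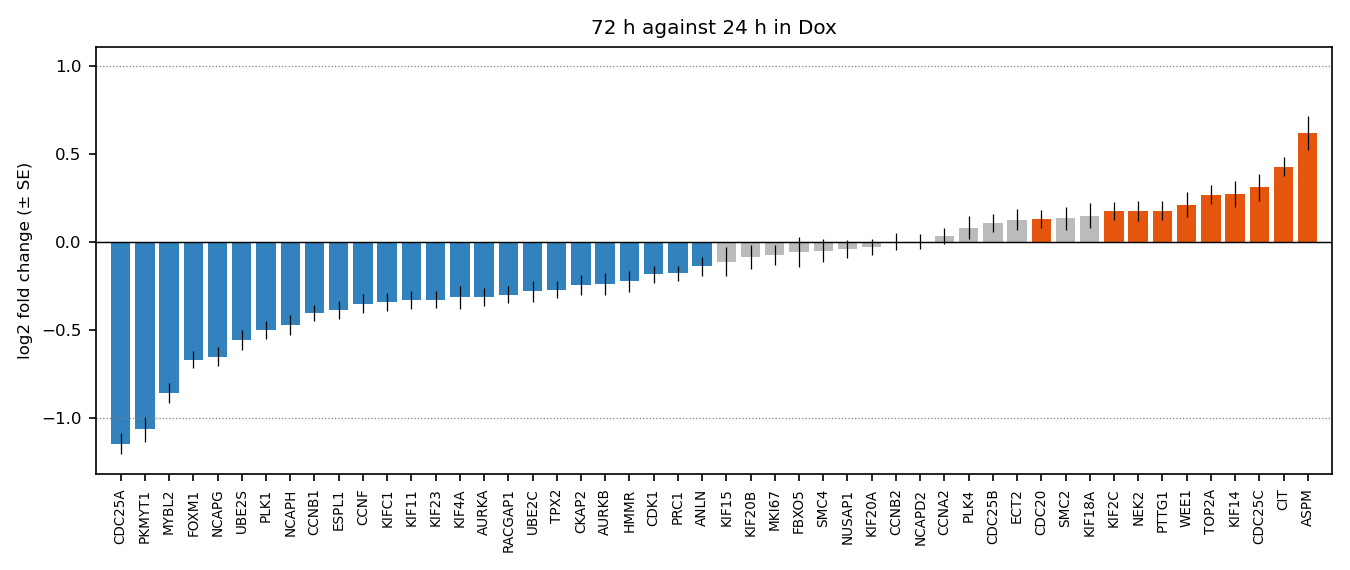
Log2 fold change of each member, 72 h against 24 h in Dox (edgeR, ± SE, n = 3 libraries each), in order of size. Blue bars were lower and orange bars higher at an adjusted p under 0.05, grey bars did not pass it, and dotted lines mark the fold threshold; CDC25A and PKMYT1 pass -1, and ASPM is the highest at 0.62.

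Libraries of a group differed from each other with transcript length. Across the 50 members, the deviation of a library from its own group went with log2 effective length without Dox. The relation was largest in 48 h replicate 3 (Pearson r = 0.67, Spearman rho = 0.67), 48 h replicate 1 (-0.62 and -0.55), 72 h replicate 3 (-0.57 and -0.52) and 72 h replicate 2 (0.54 and 0.50). The 24 h replicate 2 library had the highest CPM of its group for 28 of 50 members and 72 h replicate 2 for 29. For the change between 72 and 24 h the relation to log2 effective length was weak (r = 0.20, rho = 0.16). These are descriptions over genes that share libraries, and the part of transcript length in the steps was not tested beyond the fits with effective lengths. In those fits 22 members were lower and 8 higher at 72 h than at 24 h by adjusted p alone, against 25 and 10 in the main fit. The share of all genes was not counted there by that rule, and in the main fit it was 30.2% lower and 30.4% higher.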

How the data were processed

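Poly(A)-selected, strand-specific paired-end RNA-seq was available for 12 libraries in 4 groups of 3, grouped by the labels. Alignment by the authors used STAR and GRCh38, and RSEM with GENCODE gave gene levels. The strand setting of RSEM, like the tool versions, is not given in the sources used here, so overlapping antisense genes may not be separated by strand. The deposited tables hold RSEM expected counts, used for all tests after rounding to whole numbers, and deposited TPM, used for levels per length and for limma on log2(TPM + 1), a scale that understates the change of low genes. FPKM was not used. Members were matched by Ensembl identifier through GENCODE 44. Reads shared between genes added an SD of at most 0.01% to any member's count.

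Genes passing edgeR's filterByExpr (14822) were fitted in 1 quasi-likelihood model of all 12 libraries with TMM factors and 1 mean for each group, with two-sided tests and Benjamini-Hochberg adjustment. Versions were edgeR 4.0.16, DESeq2 1.42.0 and limma 3.58.1 under R 4.3.3. The biological coefficient of variation was 5.71%. The members and the lists of other genes were chosen with earlier results of these data known. Values in every library are given for a panel of 21 regulators, for members not called or called lower against No Dox, and for the largest and smallest change at 24 h of each role group. From each other list, up to 3 called genes per comparison are named, and FZR1, RHOA and RAD21 were added after their values were seen. The alternatives tried were edgeR with effective lengths, DESeq2 in both forms, glmTreat, other scaling factors and filters, fits restricted to the compared groups, a block for replicate number, limma on TPM, leaving out each library, and a shorter promoter window. The labels do not say whether libraries with 1 replicate number were handled together, and the main model had no replicate block. The correlations given next cannot exclude shared handling. For genes at 5 CPM or more, the 18 pairs of libraries with 1 number had deviations that correlated at -0.205 to 0.32 (mean 0.017, against -0.009 in other pairs), and 3 exceeded 0.1. No replicate pair was as close as sampling noise (chi-square per degree of freedom 2.56 to 8.62).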

Additional observations from a re-analysis of the deposited data

Results flagged for a closer look

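CDC25A and PKMYT1 differed between times in Dox beyond both thresholds. The log2 fold change of CDC25A against No Dox was 1.20 at 72 h and 2.34 at 24 h, and the difference was -1.15 (SE 0.06, edgeR adjusted p = 6.37e-15), lower in 3 of 3 libraries. That of PKMYT1 was 1.69 at 72 h and 2.76 at 24 h, and the difference was -1.06 (SE 0.07, adjusted p = 1.03e-12), lower in 3 of 3 libraries. The effective length of PKMYT1 was 1162 ± 155 bases at 72 h and 1292 ± 24.9 bases at 24 h (SD, n = 3 each).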

How the results depend on the processing

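The counts of members called against No Dox stayed within 45 to 47 higher at 24 h, 44 to 48 at 48 h and 47 to 49 at 72 h over the alternatives run, with CDC25B the only member below 0, and no member past either threshold changed sign. Members past neither changed sign between Dox times in 62 fits, within 0.24 of 0 (PLK4 at 48 h against 24 h in limma on TPM, against -0.0057 in edgeR), none past an adjusted p of 0.05. Under the 11 alternatives other than leaving out a library or the replicate block, 1550 of 1573 calls on single members against No Dox were kept, 23 were lost and 8 gained. All of those lost or gained were of ASPM, CIT, CKAP2, ECT2 or WEE1. ASPM at 24 h, with a log2 fold change of 0.81 in the main fit, was gained at 1.03 to 1.06 with effective lengths and in limma on TPM. Within Dox 6 of 22 were lost, those of CDC25A and PKMYT1.

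The count of members called lower at 72 h against 24 h (2) was 1 in DESeq2 with effective lengths and 1 in edgeR with effective lengths, 0 in glmTreat and 0 in limma on log2(TPM + 1). By adjusted p alone, the single member higher at 48 h against 24 h became 0 in both fits with effective lengths and 0 in limma, and ranged from 0 to 3 as libraries were left out, with 3 without 24 h replicate 2. In limma on TPM, 22 members were lower at 48 h against 24 h (35 in edgeR) and 4 were lower at 72 h against 48 h (7 in edgeR). In the shorter promoter window E2F letters were in 7 members in place of 13. The cause of these differences was not tested.

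With the replicate block, 46, 46 and 49 members were called higher at 24, 48 and 72 h and 2 were lower at 72 h against 24 h. The call of ECT2 at 24 h was lost, and the block changed no other call. With 3 libraries per group of unstated origin, steps within Dox of the size seen here rest on the spread between these libraries alone, and leaving out 24 h replicate 2 moved the median of 72 h against 24 h to -0.07, from -0.12 with all libraries.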
